A study of Oryza sativa with 6 samples.

Results

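The genes described here carry names of enzymes of the monolignol pathway, which makes the alcohols that plants polymerise into lignin. They were chosen by name: 9 genes whose symbol or synonym in the gene tables matched PAL06, Os4CL3, Os4CL5, 4CLL4, HCT1, OsHCT2, OsHCT3, OsCAD8A or OsCAD8C. They were read by 12 of the 57194 rice probe sets on the array. PAL06, OsHCT3 and OsCAD8C had a pair of probe sets each and the other genes had 1. All 12 were among the brighter 50% of probe sets, 28597 in all, that entered the comparison.

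The samples were roots of seedlings of Huahui 1 (HH1), a single transgenic rice line in the Minghui 63 background, and of Minghui 63 (MH63) as its non-transgenic control, at 30 days of age. Each genotype had 3 biological replicates on 1 Affymetrix array each. Plants of both genotypes were grown in nutrient solution in a climate chamber, and no other treatment is named. The series asked which genes and pathways differ in HH1 roots, as a guide to effects that the transformation was not meant to have. The labels give neither the transgene nor its promoter, and a change due to the transgene cannot be told apart from any other difference between the line and its parent. They do not say whether replicates were single plants or pools, or shared a container, so the p-values below measure the spread between these samples.

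In the monolignol pathway, phenylalanine ammonia-lyase (PAL) removes ammonia from phenylalanine, and the ring of the product is then hydroxylated. The enzyme 4-coumarate-CoA ligase (4CL) joins the hydroxycinnamic acids made in this way to coenzyme A. Hydroxycinnamoyl transferase (HCT) moves the acyl group to shikimate before the ring is hydroxylated again, and cinnamoyl-CoA reductase (CCR) and cinnamyl alcohol dehydrogenase (CAD) reduce the products to aldehydes and then alcohols. In roots lignin stiffens the xylem and forms part of the barriers in the outer cell layers and the endodermis. The same activated acids also feed flavonoid synthesis and soluble defence compounds.

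The arrays were alike in brightness, with median signals from 33.1 to 33.8. Root markers were present, since 10 or 11 of the 12 root marker genes with a probe set exceeded the reporter-probe level on each array. That level, between 37.1 and 42.3, is the 95th percentile of the probe sets for foreign marker genes. The silicon transporter Lsi1 had a signal between 4801 and 8585. Of 11 green shoot markers, 3 to 9 exceeded the level. Their summed signal was 1831 in HH1 replicate 2, 2222 in MH63 replicate 1 and 2228 in MH63 replicate 2, and between 546 and 642 on the other arrays, while RBCS1 stayed between 3.26 and 3.84. Of the 7 green markers that entered the comparison, 6 had a lower mean log2 signal in HH1 and 1 a higher one. The median log2 difference of the 7 was -0.47. PSB28 read 56.7, 50.5 and 72.4 in HH1 replicates 1, 2 and 3, and 91.9, 79.2 and 75.4 in MH63 replicates 1, 2 and 3. CHL1, too, was lower on every HH1 array than on any MH63 array. The summed signal of 8 seed markers was 6048 in HH1 replicate 1 and between 358 and 751 elsewhere, while GLUB-4 was at most 9.63. The seed marker GLUA-3 did not follow the sum. It read 110, 157 and 51.6 in HH1 replicates 1, 2 and 3, and 11.1, 9.6 and 6.9 in MH63 replicates 1, 2 and 3. The part of shoot or seed RNA in the results below was not tested.

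Between the genotypes, 7 of the 9 genes had a higher mean log2 signal in HH1 and 2 a lower one, each gene read from its brightest probe set. Counted by probe set, 8 of the 12 were higher in HH1, beside 46.4% of all probe sets tested. The median log2 difference was 0.25 over the 9 genes and 0.23 over the 12 probe sets, beside -0.01 over all probe sets tested. None of the 12 probe sets passed the test, which was limma with Benjamini-Hochberg adjustment over all 28597 probe sets and a threshold of 0.05, and 0.112% of all probe sets tested did. At an unadjusted p under 0.05 there were 4 of the 12, from PAL06 (both probe sets), 4CLL4 and OsCAD8C, where 4.01% of all probe sets tested had such a p. The groups did not overlap for 4 probe sets, of PAL06, Os4CL3, 4CLL4 and OsCAD8C, beside 8.78% of all probe sets tested. HH1 was above MH63 in 3 of them, beside 3.51%, and below in 1, beside 5.27%.

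**Figure D1:**
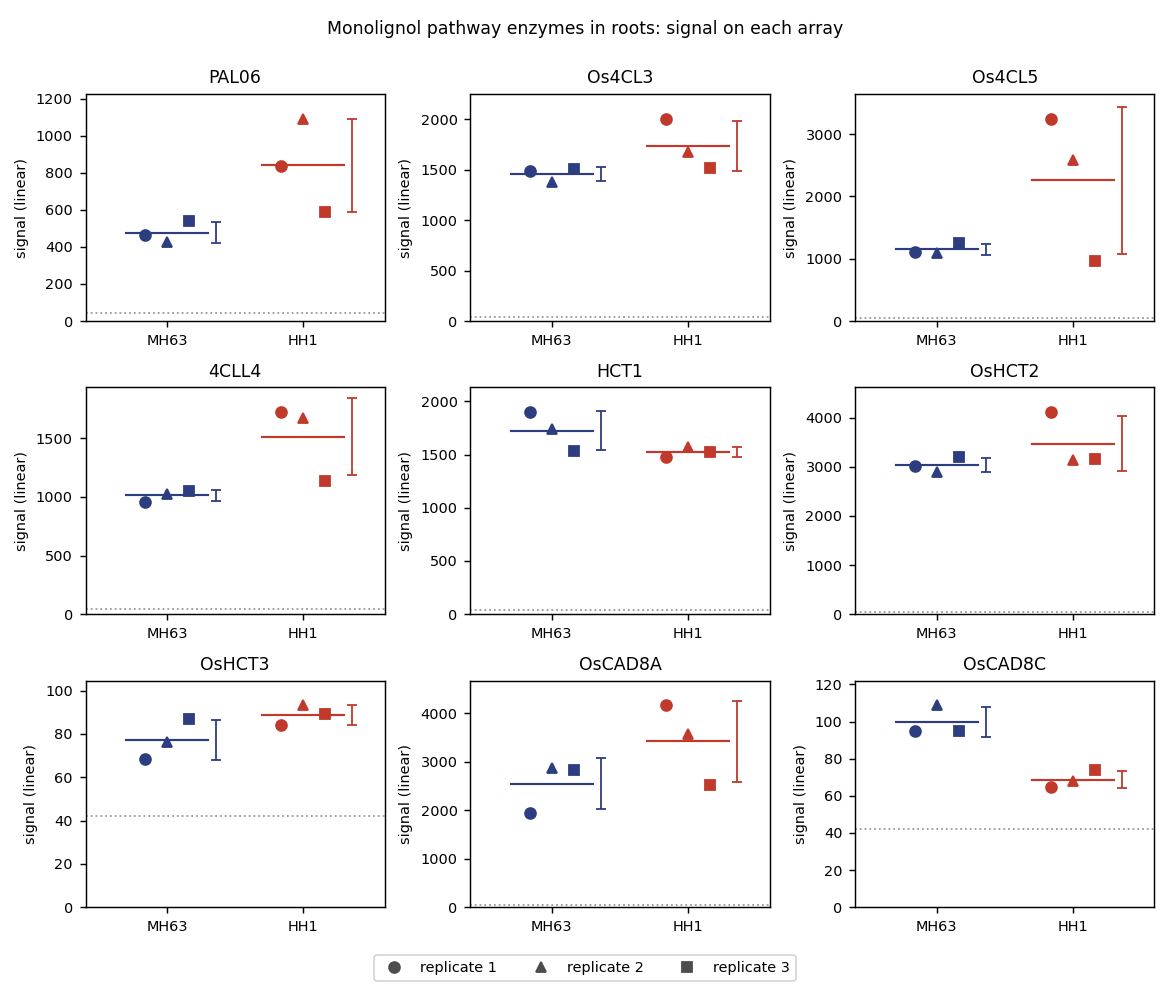
Signal of each enzyme gene on each array, on a linear axis from 0, with 1 panel per gene (brightest probe set); symbols mark replicates, horizontal lines the group mean and bars the SD (n = 3), and the dotted line is the highest reporter-probe level. HH1 replicates 1 and 2 lie above all MH63 arrays for PAL06, Os4CL3, Os4CL5, 4CLL4 and OsCAD8A, while HH1 replicate 3 lies close to or within the MH63 values, and OsCAD8C is lower on all HH1 arrays.

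PAL06 catalyses the entry step. Its signal was 835, 1092 and 590 in HH1 replicates 1, 2 and 3, and 463, 427 and 541 in MH63 replicates 1, 2 and 3. Every HH1 array was above every MH63 array, with HH1 replicate 3 nearest to them. The HH1 mean of 839 ± 251 stood against an MH63 mean of 477 ± 58.3 (SD, n = 3 each). The log2 difference was 0.78 (standard error 0.23), a ratio of 1.71, and did not pass (adjusted p 1.00, limma). The second probe set, which can also bind related transcripts, read 840, 984 and 550 in HH1 and 427, 381 and 566 in MH63. There the groups overlapped, because MH63 replicate 3 exceeded HH1 replicate 3, and the log2 difference was 0.77. The PAL family is large and its members are similar, so its signal may include relatives.

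The ligases act later in the pathway than PAL. Os4CL5 had the largest log2 difference of the 9 genes, 0.80, and the widest spread. Its signal was 3251, 2579 and 956 in HH1 replicates 1, 2 and 3, and 1107, 1088 and 1255 in MH63 replicates 1, 2 and 3. HH1 replicates 1 and 2 were 2.83 and 2.24 times the MH63 mean, whereas HH1 replicate 3 was 0.83 times it and below all MH63 arrays. The highest HH1 array was 3.40 times the lowest, beside 1.15 times in MH63. The 95% confidence interval of the log2 difference ran from -0.21 to 1.81 (standard error 0.43; adjusted p 1.00, limma). Without HH1 replicate 3 the log2 difference was 1.33 and Os4CL5 passed, with an adjusted p of 0.019 in limma. It was then 1 of 12 member probe sets called, beside 1.07% of all probe sets tested. Without HH1 replicate 1 the log2 difference was 0.45, and over all 15 alternatives the adjusted p ran from 0.019 to 1.00.

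Os4CL3 is the isoform whose suppression is known to lower lignin in rice. It read 2006, 1678 and 1517 in HH1 replicates 1, 2 and 3, and 1482, 1375 and 1503 in MH63 replicates 1, 2 and 3. The groups did not overlap, but HH1 replicate 3 was barely above the highest MH63 array. The log2 difference was 0.25, with a 95% confidence interval from -0.07 to 0.56 and an adjusted p of 1.00 in limma, and it was 0.14 without HH1 replicate 1.

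4CLL4 belongs to the 4CL-like enzymes, which share the acyl-activating fold of 4CL and whose own substrates are less well known. Its signal was 1727, 1676 and 1137 in HH1 replicates 1, 2 and 3, and 959, 1027 and 1054 in MH63 replicates 1, 2 and 3. All HH1 arrays were above all MH63 arrays, and MH63 was tight, with an SD of 48.8 on a mean of 1014 (n = 3) beside 327 on 1513 in HH1. The log2 difference was 0.55 (standard error 0.18; adjusted p 1.00, limma). Without HH1 replicate 3 it was 0.75, with an adjusted p of 0.060, and for PAL06 the same omission gave 1.01 and 0.088, so neither passed.

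The HCT genes stood closer to equality. OsHCT2 had a signal of 4121, 3143 and 3150 in HH1 replicates 1, 2 and 3, and 3020, 2902 and 3194 in MH63 replicates 1, 2 and 3. Only HH1 replicate 1 lay outside the MH63 range, and the log2 difference was 0.18 with all arrays and 0.05 without that one. HCT1 was one of the 2 genes lower in HH1, at 1480, 1576 and 1529 against 1904, 1746 and 1530. HH1 was the tighter group, and the lowest MH63 array was level with HH1, so that the log2 difference was -0.17 with a 95% confidence interval from -0.45 to 0.11. Without MH63 replicate 1 it was -0.10.

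OsHCT3 is also listed under the synonym OsPHT1, a name used for putrescine hydroxycinnamoyltransferases, which make phenolic amides rather than lignin precursors. Its probe sets disagreed. The brighter one, which can also bind related transcripts, read 84.1, 93.5 and 89.1 in HH1 and 68.2, 76.5 and 87.0 in MH63, a log2 difference of 0.21, or 0.12 without MH63 replicate 1. The other read 68.4, 80.8 and 75.9 in HH1 and 76.8, 92.3 and 83.8 in MH63, a log2 difference of -0.17. Averaged, they gave 0.02, so that the gene has no settled direction, and its place among the 7 higher genes rests on the brighter probe set.

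The CAD genes lay on opposite sides of 0. OsCAD8A read 4171, 3565 and 2515 in HH1 replicates 1, 2 and 3, and 1936, 2860 and 2834 in MH63 replicates 1, 2 and 3. HH1 replicates 1 and 2 were above all MH63 arrays and HH1 replicate 3 was within their range. The log2 difference was 0.42, with a 95% confidence interval from -0.14 to 0.97 and an adjusted p of 1.00 in limma, and it was 0.26 without HH1 replicate 1 and 0.23 without MH63 replicate 1.

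OsCAD8C had the smallest p of the 9 genes and the opposite sign. It read 64.5, 67.9 and 73.8 in HH1 replicates 1, 2 and 3, and 94.98, 109 and 94.8 in MH63 replicates 1, 2 and 3. Every HH1 array was below every MH63 array, and HH1 replicate 3 was the nearest to them. The log2 difference was -0.53 (standard error 0.13), a ratio of 0.69, and did not pass (unadjusted p 0.0041, adjusted p 0.81, limma). Its second probe set was near the reporter-probe level, which 1 of 3 arrays exceeded in each genotype, and read 41.1, 30.8 and 33.5 in HH1 and 36.2, 46.2 and 38.3 in MH63. Those groups overlapped, and the log2 difference was -0.20. The ID of the brighter probe set carries the letter A where the other 11 carry S, and no source used here states which strand it reads. OsCAD8A and OsCAD8C lie in a row of CAD8 genes in the gene annotation with only OsCAD8B between them, and OsCAD8D follows OsCAD8C. OsCAD8B and OsCAD8D were not analysed here, and signal may be shared within this group of close copies.

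**Figure D2:**
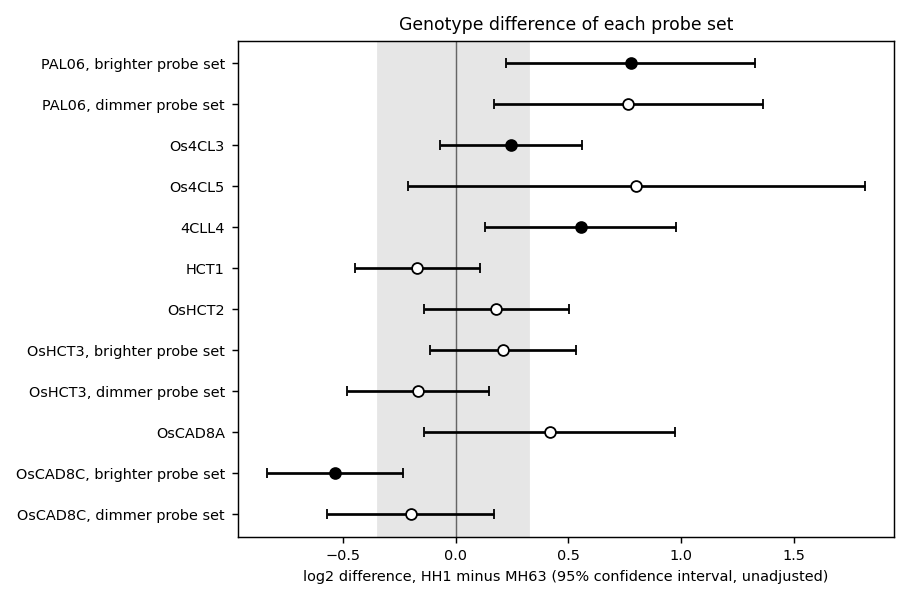
Log2 difference, HH1 minus MH63, of the 12 probe sets with the unadjusted 95% confidence interval from limma; filled points mark probe sets whose groups do not overlap, and the grey band spans the 5th to the 95th percentile of all probe sets tested, from -0.34 to 0.33. Both PAL06 probe sets, Os4CL5, 4CLL4 and OsCAD8A lie to the right of the band, and the brighter OsCAD8C probe set lies to its left.

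The HH1 replicates were not alike for these enzymes. HH1 replicate 1 was above all MH63 arrays for 6 of the 9 genes, HH1 replicate 2 for 6 and HH1 replicate 3 for 4. Over all probe sets tested these shares were 28.4%, 25.7% and 28.3%. HH1 replicates 1, 2 and 3 were below all MH63 arrays for 2, 1 and 3 of the 9 genes. The shares below over all probe sets tested were 27.0%, 38.5% and 26.5%. The median of the 9 genes' log2 signals relative to the MH63 mean was 0.47, 0.28 and 0.05 in HH1 replicates 1, 2 and 3. HH1 replicate 3 was the lowest HH1 array for 5 of the 9, namely PAL06, Os4CL3, Os4CL5, 4CLL4 and OsCAD8A, and for 26.5% of all probe sets tested. HH1 had the larger SD of log2 signals for 6 of the 9 genes, beside 64.1% of all probe sets tested. Summed seed marker signal was high in HH1 replicate 1 only, though the seed marker GLUA-3 was higher on every HH1 array than on any MH63 array. Summed green marker signal was high in HH1 replicate 2 but not in HH1 replicate 1. By genotype, 6 of the 7 green markers tested had a lower mean log2 signal in HH1, and none passed the test in limma. The part of seed or shoot RNA in the values of these enzymes was not tested.

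**Figure D3:**
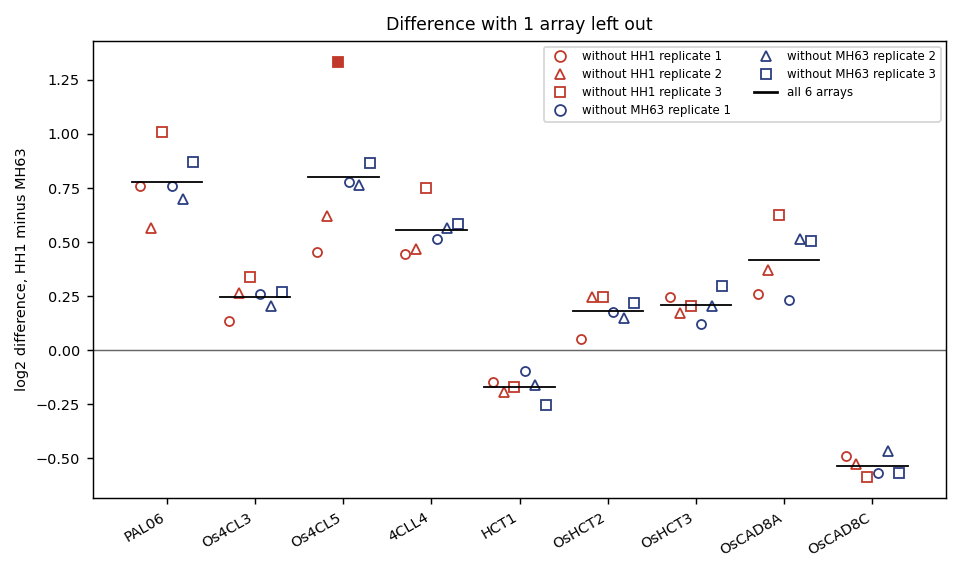
Log2 difference of each gene, HH1 minus MH63, with all 6 arrays (black line) and with each array left out in turn (red for an HH1 array, blue for an MH63 array); the filled symbol marks an adjusted p under 0.05 in limma. Signs do not change, and Os4CL5 without HH1 replicate 3, at 1.33, is the only filled symbol.

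Other genes of the pathway were taken from a list of names. It held 19 further genes, of which 13 had a probe set here and 12 were tested. Of these, 6 were above and 6 below 0, none passed the test in limma and none had an unadjusted p under 0.05. Their median log2 difference was -0.02, and the groups overlapped for all 12. Os4CL1 and the O-methyltransferase ROMT-15, with the smallest p among those above 0, had log2 differences of 0.17 and 0.09. OsCAD3 and OsCAD7, with the smallest p among those below 0, had log2 differences of -0.24 and -0.72. Within the 4CL family, Os4CL4 read 1785, 1033 and 1781 in HH1 and 1459, 1460 and 1513 in MH63. Here HH1 replicate 2 was the low array and HH1 replicates 1 and 3 were the high ones, an order not seen for Os4CL5. HH1 replicate 2 was the lowest HH1 array for 44.9% of all probe sets tested. No array had Os4CL2 above the reporter-probe level.

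Of the genes of the last steps, OsCAD2, OsCAD7 and OsCCR1 are described here, and they gave 2 kinds of pattern. OsCAD2, the CAD that is defective in the gold hull and internode mutant of rice, read 4840, 4296 and 6367 in HH1 and 5660, 4771 and 5584 in MH63, a log2 difference of -0.06. OsCAD7, also known as FC1 for its flexible culm mutant, read 17.4, 516 and 10.4 in HH1 and 70.9, 383 and 15.3 in MH63. OsCCR1 read 41.8, 185 and 23.2 in HH1 and 58.9, 127 and 43.8 in MH63. Low readings of these genes were near or below the reporter-probe level. OsCAD7 exceeded it on 1 HH1 and 2 MH63 arrays, and OsCCR1 on 2 HH1 and 3 MH63 arrays. For OsCAD7 and OsCCR1, the replicates numbered 2 were the high arrays in each genotype, replicate 3 was the low one, and the genotypes overlapped. The summed green marker signal given above was also high in HH1 replicate 2 and MH63 replicate 2 and low in both replicates numbered 3. In MH63 replicate 1 it was high too, where OsCAD7 and OsCCR1 were intermediate, and its part in these values was not tested. In whole roots, more cells of a type and more RNA per cell cannot be told apart.

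**Figure D4:**
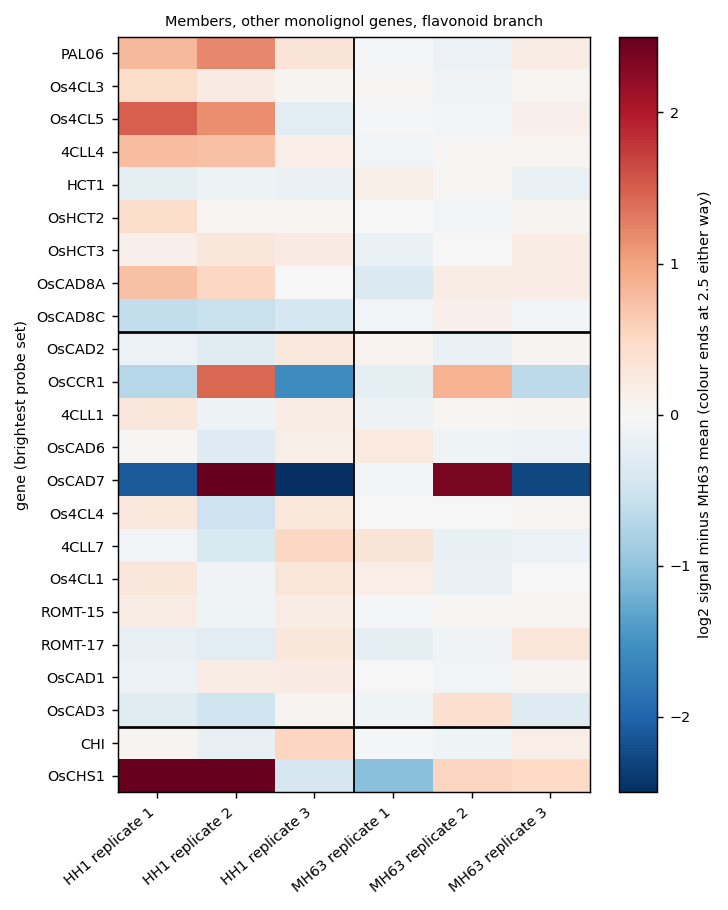
Log2 signal on each array minus the MH63 mean, as colour, for the 9 enzyme genes (top), the 12 other monolignol genes tested (middle) and the flavonoid genes CHI and OsCHS1 (bottom). HH1 replicates 1 and 2 are red for PAL06, Os4CL5, 4CLL4, OsCAD8A and OsCHS1, while OsCAD7 and OsCCR1 separate the replicates of both genotypes.

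Of the flavonoid branch, which uses the same activated acids, OsCHS1 and CHI were tested. OsCHS1, a chalcone synthase that starts the branch, read 2631, 3261 and 219 in HH1 replicates 1, 2 and 3, and 141, 426 and 416 in MH63 replicates 1, 2 and 3. As for Os4CL5, HH1 replicates 1 and 2 were above all MH63 arrays and HH1 replicate 3 was not. The log2 difference was 2.08 with a 95% confidence interval from -0.39 to 4.55 and an adjusted p of 1.00 in limma. Its other tested probe sets differed from this. One, which can also bind related transcripts, read 297, 482 and 161 in HH1 and 80.5, 135 and 131 in MH63, with every HH1 array above every MH63 array and a log2 difference of 1.34 (unadjusted p 0.014, adjusted p 1.00, limma). The groups overlapped for the other, with a log2 difference of -0.02. CHI, a chalcone isomerase, had a log2 difference of 0.14. Genes of the secondary wall were close to equal, with 2 of 4 above 0 and a median log2 difference of -0.01. Of these OsCesA9 and BC1 were at 0.06 and 0.05, and OsCesA4 and OsCesA7 at -0.06 each.

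Among 2172 other tested genes with a name, those whose log2 signal followed PAL06 most closely over the 6 arrays were OsPP2C72, RGP1 and ISPF, with Pearson r of 0.98, 0.98 and 0.97. ISPF, an enzyme of plastid isoprenoid synthesis, read 596, 744 and 428 in HH1 and 382, 412 and 461 in MH63. For 4CLL4 they were OsKCO1, OsAOX1A and OsUEL-2, with r of 0.99, 0.99 and 0.98. OsAOX1A, an alternative oxidase of mitochondria, read 715, 772 and 353 in HH1 and 256, 343 and 320 in MH63, with HH1 replicate 3 near MH63. For OsCAD8C they were DRR2, Os4bglu16 and OsCEST, with r of 0.93, 0.92 and 0.92. Os4bglu16, a beta-glucosidase, read 142, 136 and 183 in HH1 and 255, 231 and 227 in MH63, with no overlap. These are the highest of many correlations over the same 6 arrays, which share their scaling, and are given as a description. The genes were chosen for this likeness, so a pattern they share with the member is no separate support for it.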

How the data were processed

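Total RNA from roots was labelled with biotin and hybridised to 1 array per sample, per the labels. The authors deposited 1 intensity per probe set and array on a linear scale. The submitters' processing notes name MAS5 without a version, and their scaling was not given in the sources used here. There are no detection calls.

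The 187 control probe sets were set aside. Log2 signals without an offset, of the 28597 brighter probe sets by mean over all 6 arrays, entered a two-sided test (limma 3.58.1 in R 4.3.3, lmFit, then eBayes with an intensity trend), with p-values adjusted by Benjamini-Hochberg. The fit was tested on simulated data. With 3 arrays against 3, an exact permutation test of a single gene cannot give a p below 0.1. The number of arrays limits the precision.

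Genes were named through the platform annotation and the RefSeq annotation ASM3414082v1, used only for names and gene order, because no source used here gives the build behind the probe sets. Of the non-control probe sets 22436 had 1 gene, 95 had several and the rest are unnamed here. The brightest probe set stood for a gene. Probe sets ending in _x_at can bind related transcripts. The text names all 9 members, of each pathway list up to 2 genes with the smallest p in each direction, the brightest gene of steps that no member covers (CCR, and CAD2 and CAD7, which the rule counted as steps of their own), and the 3 named genes most correlated with PAL06, 4CLL4 and OsCAD8C. Os4CL4 and Os4CL2 were named after their values were seen. The members and lists were chosen with earlier results of these data known. Names for other pathway steps found no gene with a probe set, and those steps were not analysed here. Alternatives were other scalings, filters, an offset, no trend, array weights, a replicate block, each array left out and averaged probe sets per gene. Figures were drawn with matplotlib 3.10.9.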

Additional observations from a re-analysis of the deposited data

How the results depend on the processing

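Over 15 alternatives, none of the 9 genes changed sign in any alternative that tested it, and 132 of 133 gene values stayed on the same side of the threshold. The exception was the omission of HH1 replicate 3 for Os4CL5, which then passed at 0.019 (limma, adjusted). The cause was not tested. OsHCT3 and OsCAD8C were below the filter in the brightest 25%. The number of member probe sets called was 0 to 1 with 1 array left out and 0 otherwise, and their median log2 difference by gene ran from 0.21 to 0.42. The count over all probe sets, 32, rose to 54 when all probe sets were tested, fell to 8 when only the brightest 25% were, and was 50 with array weights. Leaving out 1 array gave 0 (HH1 replicate 1) to 306 (HH1 replicate 3), with 1, 20 and 13 when MH63 replicates 1, 2 and 3 were omitted.

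The genotypes share replicate numbers, and the arrays matched by number only in part. Deviations from the group means of arrays numbered 1, 2 and 3 correlated at -0.12, 0.45 and 0.31 over the probe sets tested. HH1 replicates 2 and 3 each correlated best with the MH63 array of the same number. HH1 replicate 1 correlated best with MH63 replicate 3, at 0.25. With the replicate block 17 probe sets were called in all, and no member or other pathway gene.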
